A study of Mus musculus with 45 samples.

Results

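The 10 genes described here bind, take up, store or release fatty acids in the cell: Fabp1, Fabp4, Fabp5, Cd36, Lpl, Dgat2, Plin2, Cidec, Pnpla2 and Lipa. They were chosen by name, with earlier results of these data known, from the 23594 gene rows in the deposited table of expression values. Shares over all tested genes, given below beside counts of these genes, describe the set and do not test it. Each of the 10 rows was read in 27 of the 45 libraries of the series. These 27 libraries come from lungs of C57BL/6J mice with no genotype or further treatment in the labels, from 3 cell types sorted by flow cytometry. They are the inflammatory monocytes, written iMo, the interstitial macrophages, written IM, and the macrophages of the alveolus, written AM. Each cell type was taken after intraperitoneal (ip) lipopolysaccharide (LPS), at 2h, 6h and 20h, and without it, at 0h. Each iMo group and each IM group had 2 libraries, while AM had 2, 3 and 2 libraries at the successive times and 4 without LPS. The other 18 libraries followed nasal LPS and were not read, since row names and values did not match there: across rows, the Pearson r between their log2 values and those of the libraries used here was 0.00970 to 0.0250. The labels give no age or sex, and the latest time is 20h in the labels but 22h in the text for the whole series. The labels do not say whether libraries of a group are separate animals, so p-values measure the spread between these libraries.

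AM sit on the air side of the alveolus, where they take up and break down the lipids of surfactant, and their identity depends on the fatty acid sensing receptor PPARγ. Fatty acids reach a cell through lipoprotein lipase, which frees them from circulating triglyceride, and through the scavenger receptor CD36. Inside the cell, fatty acid binding proteins carry them, DGAT2 joins them into triglyceride, PLIN2 and CIDEC sit on the lipid droplet that stores it, and the lipases encoded by Pnpla2 (ATGL, at the droplet) and Lipa (in the lysosome) free them again. IM lie in the tissue around vessels and airways, and iMo are Ly6C-high cells that enter the lung from blood. LPS, a part of the bacterial wall, is sensed through TLR4.

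Cidec and Fabp1 were high in AM and low in iMo and IM, and their group means moved together (Pearson r 0.976 over the 12 groups), while Plin2 was abundant in every library. Their promoter sequences are shown for these reasons. RefSeq (GRCm38.p6) held windows for 6 of the 10 genes (Plin2, Cd36, Fabp1, Cidec, Pnpla2 and Lipa). Sequences run 5′ to 3′ on the gene's strand and stop at the base before the start of transcription. Capitals mark the nuclear receptor half-site AGGTCA, read on either strand and so also as TGACCT, the letters that receptors such as PPARγ with RXR can bind.
Fabp1 (chr6:71199629-71199826, plus strand): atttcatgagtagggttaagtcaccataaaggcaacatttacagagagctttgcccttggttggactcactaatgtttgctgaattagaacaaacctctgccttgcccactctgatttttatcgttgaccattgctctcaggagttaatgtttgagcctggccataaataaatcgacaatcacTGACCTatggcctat
Cidec (chr6:113435761-113436010, minus strand): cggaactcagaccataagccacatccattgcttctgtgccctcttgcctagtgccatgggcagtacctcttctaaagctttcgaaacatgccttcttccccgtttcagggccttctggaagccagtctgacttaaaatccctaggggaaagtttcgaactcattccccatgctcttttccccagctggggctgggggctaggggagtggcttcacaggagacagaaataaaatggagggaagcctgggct
Plin2 (chr4:86670061-86670309, minus strand): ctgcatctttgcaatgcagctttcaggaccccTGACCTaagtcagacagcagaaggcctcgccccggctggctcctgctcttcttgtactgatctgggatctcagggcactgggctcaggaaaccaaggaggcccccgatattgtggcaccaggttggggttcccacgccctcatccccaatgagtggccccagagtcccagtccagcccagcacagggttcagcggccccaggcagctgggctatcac
The half-site lay in the windows of 3 of the 6 genes: in Fabp1 at 67 and at 9 bases before the RefSeq start, in Plin2 at 218 and in Cd36 at 228. The base run printed for Fabp1 ends at the earlier GENCODE start, so it shows the site at 67. Cidec holds no AGGTCA in this window. AGGTCA on either strand was found in 14.02% of 32851 RefSeq windows of 250 bases. An exact pair of AGGTCA half-sites 1 base apart in the same orientation was in 11 of those windows and in none of the windows of these genes. PPARγ with RXR binds this arrangement, but only exact letters were searched, so copies with other letters were not tested. The PU.1 core GAGGAA lay in Fabp1 and Lipa and in 23.3% of windows, TGANTCA (AP-1) in the window of a second, downstream RefSeq start of Cidec that is not printed and in 6.75%, TATAAA in Fabp1 and Lipa and in 12.4%, and CACGTG (E-box) in none of these genes and in 6.02%. In Fabp1, GAGGAA at 45 and TATAAA at 30 bases before the RefSeq start lie past the end of the printed run. These matches describe the letters of the windows.

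Levels are in TPM, which scales reads by gene length and library and carries no read depth. Library sums ran from 331473 to 551635 TPM, and Rn45s, a ribosomal RNA precursor, took 4.33 to 33.3% of them. In iMo the sums were 506430 and 551635 TPM at 0h, with 6.27 and 5.32% Rn45s. After ip LPS the iMo sums were 348040 to 433657 TPM, with 9.26 to 25.0% Rn45s. Titles end in 1 of 3 numeric codes whose meaning the labels do not give, called here the first, the second and the third code in numeric order. The third code is on all iMo and IM libraries of 0h and on AM libraries A, C and D of 0h. The ip libraries carry the first or the second, so for iMo and IM the code and LPS cannot be told apart. In AM, the 0h library of the first code shares its code with ip libraries. Libraries of the first code carry no letter, and the others are named by their letter. Differences were tested with limma on log2(TPM + 1) over 8937 genes, with Benjamini-Hochberg adjusted p-values, and a gene is called where its adjusted p is under 0.05. From each log2 difference the median over all tested genes of its comparison was subtracted. That median reached -0.79 in IM at 2h and is printed where its size passes 0.1. A call refers to the value before the subtraction. All 10 genes passed the filter on low values. In RNA of sorted populations, fewer cells of a type and less RNA per cell cannot be told apart.

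AM libraries carried the markers of their label, iMo libraries carried those of monocytes, and IM libraries carried those of IM, monocytes and neutrophils. Car4, a surface marker of AM, ran from 0.95 to 13.2 TPM in iMo, 2.73 to 57.7 TPM in IM and 242 to 1331 TPM in AM, while Ly6c2, a monocyte marker, was at 1004 to 4892 TPM in iMo, 452 to 2048 TPM in IM and 0.305 to 62.2 TPM in AM. C1qa, a complement gene of IM, ran from 18.1 to 1077 TPM in IM. Its ranges in iMo (0.45 to 252 TPM) and AM (0 to 149 TPM) overlapped that of IM. The 12 IM markers summed to 6261 and 7753 TPM in IM at 0h. After ip LPS that sum in IM was 485 and 1314 TPM at 2h, 507 and 559.7 TPM at 6h, and 2067 and 2254 TPM at 20h. Over all iMo libraries it ran from 236 to 1901 TPM, a range that holds the IM values of 2h and 6h. Neutrophil markers (10 genes) summed to 135 to 3059 TPM in iMo, 11176 to 56844 TPM in IM and 24.7 to 442 TPM in AM. Within IM they were at 19758 to 22410 TPM at 2h, 17228 to 56844 TPM at 6h and 28140 to 34824 TPM at 20h, against 11176 to 22484 TPM at 0h. In iMo the neutrophil sum was 336 to 673 TPM at 2h, 1753 to 3059 TPM at 6h and 2877 to 2907 TPM at 20h, against 135 to 216 TPM at 0h. The monocyte markers (8 genes) of iMo summed to 5079 to 6876 TPM at 2h, 4111 to 5194 TPM at 6h and 2231 to 3015 TPM at 20h, against 8454 to 12921 TPM at 0h. The part of these markers in the levels and time differences of IM and iMo was not tested. The sum of 12 endothelial markers stood at 701 and 953 TPM in IM at 0h, against 10.1 to 46.9 TPM in IM after ip LPS, 11.4 to 65.5 TPM in iMo and 11.4 to 142 TPM in AM. Epithelial markers (11 genes) summed to 18.3 to 51.5 TPM in IM after LPS, against 301 and 658 TPM in IM at 0h, and to 11.6 to 26.5 TPM in iMo after LPS, against 124 and 165 TPM in iMo at 0h. Adipocyte markers (5 genes) never summed to more than 5.48 TPM, and Plin1, the droplet protein of fat cells, stayed at or below 1.91 TPM. In AM at 20h, IM markers (12 genes) summed to 3898 TPM in library A and to 209.7 TPM in the library of the first code.

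**Figure D1:**
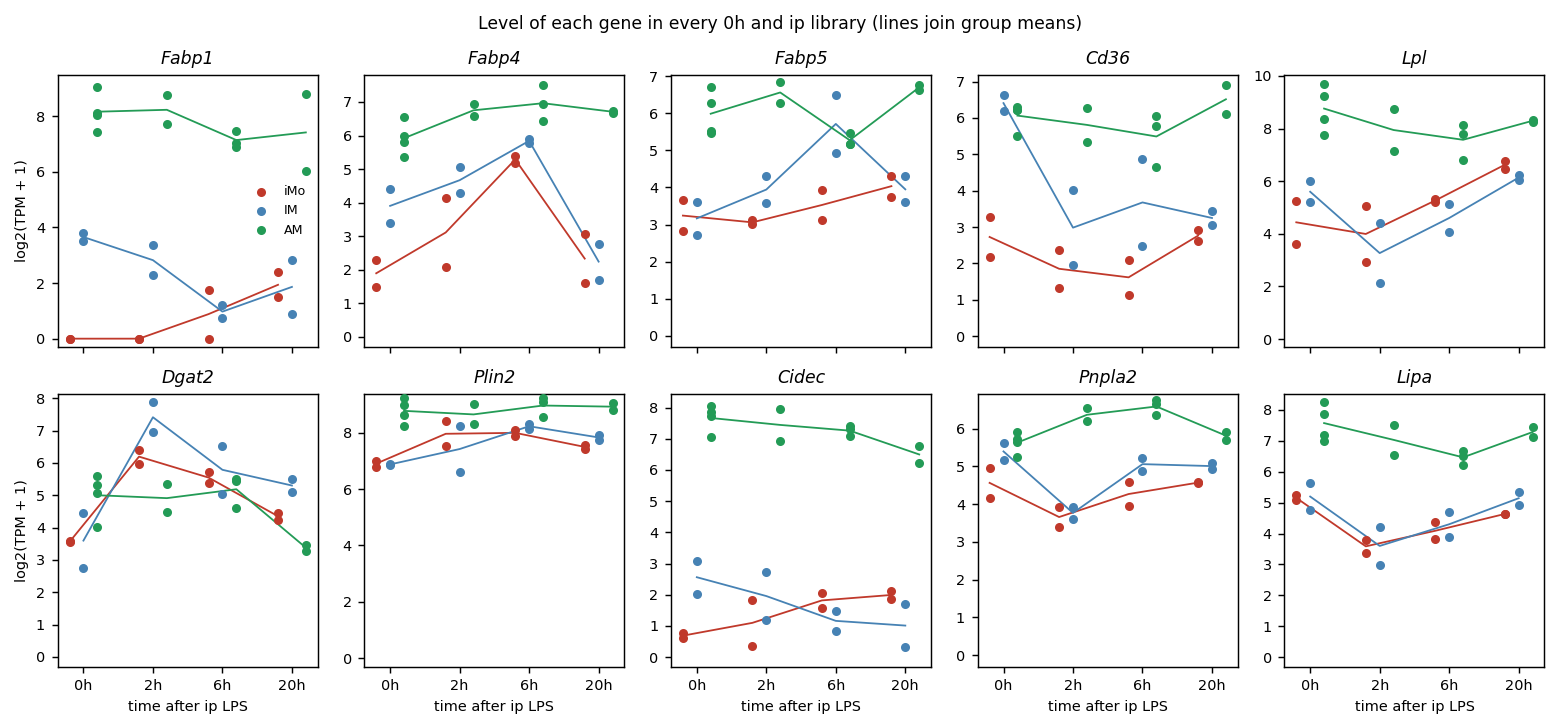
Level of each of the 10 genes on a log2(TPM + 1) axis against time after ip LPS, 1 point per library, with lines joining the means of iMo (red), IM (blue) and AM (green). The AM points after ip LPS lie apart from those of iMo for 8 of 10 genes (18.7% of all tested genes), whereas Dgat2 peaks at 2h in IM (123 and 234 TPM) and iMo (62.2 and 84.3 TPM), and Cd36 of IM is high at 0h alone.

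Before LPS, nearly the whole set was lower in monocytes and interstitial macrophages than in AM. In iMo against AM, 10 of 10 genes were called lower, where 29.6% of all tested genes were called in either direction (1201 of 8937 lower) and the median of all genes was 0.15. In IM against AM, 8 of 10 were called lower, where 26.0% of all tested genes were called (982 lower). Cd36 and Pnpla2 were the exceptions in IM. Fabp1 and Cidec reached the filter of 5 TPM in no iMo library, so their iMo calls rest on values near the floor. The median log2 difference over the 10 genes was -3.19 in iMo against AM and -2.20 in IM against AM.

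Among the binding proteins, Fabp1, the form best known from liver and gut, was listed at 0 TPM in both iMo libraries of 0h. It was at 10.5 and 12.7 TPM in IM, against 265, 277, 170.4 and 527 TPM in AM. Every AM library was far above every IM library, and the log2 difference of IM minus AM was -4.51 (SE 0.61, limma adjusted p = 3.37e-06). Fabp1 in iMo was called lower than in AM (limma adjusted p = 3.69e-10), and no fold is given against a group listed at 0.

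Fabp4, the adipocyte and macrophage form, had 1.82 and 3.92 TPM in iMo, 20.3 and 9.55 TPM in IM, and 39.9, 54.5, 62.7 and 92.2 TPM in AM. The 3 cell types did not overlap, and both differences from AM were called: -4.17 (SE 0.50, limma adjusted p = 7.5e-07) in iMo and -2.02 (SE 0.50, limma adjusted p = 0.00325) in IM. The IM call was lost without IM library B (limma adjusted p = 0.124). Fabp5, the epidermal form, was at 11.7 and 6.06 TPM in iMo, 11.2 and 5.57 TPM in IM, and 102.5, 43.2, 44.7 and 75.9 TPM in AM. Monocytes and IM overlapped each other and lay below all AM libraries, by -2.89 in iMo and -2.82 in IM on the log2 scale (limma adjusted p = 2.16e-05 and 1.64e-05).

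For uptake, Lpl was at 11.2 and 37.4 TPM in iMo, 36.0 and 62.6 TPM in IM, and 215, 328, 606 and 817 TPM in AM. The AM range lay above the rest, with differences of -4.47 in iMo (SE 0.65, limma adjusted p = 1.14e-05) and -3.17 in IM (SE 0.65, limma adjusted p = 0.000509). Cd36 was at 3.48 and 8.77 TPM in iMo, 72.1 and 97.5 TPM in IM, and 44.5, 73.7, 73.1 and 78.5 TPM in AM. IM overlapped AM, with a difference of 0.34 (SE 0.58, limma adjusted p = 0.733), and iMo lay below both, by -3.48 against AM (SE 0.58, limma adjusted p = 7.63e-05). Cd36 is also made by capillary endothelium, and the IM libraries with high Cd36 were the ones with 701 and 953 TPM of summed endothelial markers. The part of endothelial RNA in this level was not tested.

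Dgat2, the last enzyme of triglyceride synthesis, had the highest adjusted p of the genes called against AM: it was at 10.9 and 10.6 TPM in iMo, 20.7 and 5.75 TPM in IM, and 15.1, 39.2, 32.5 and 47.7 TPM in AM. The IM and AM libraries overlapped. Dgat2 was called lower in iMo (-1.59, SE 0.48, limma adjusted p = 0.0246) and in IM (-1.41, SE 0.48, limma adjusted p = 0.0316). The iMo call was lost without AM library A or D or either iMo library (limma adjusted p up to 0.133), and the IM call was lost without AM library A, C or D or IM library B (limma adjusted p up to 0.617). Without IM library B the IM difference was -0.55.

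The droplet coats differed in scale. Plin2 was at 128 and 110.3 TPM in iMo, 119 and 115 TPM in IM, and 303, 509, 396 and 605 TPM in AM. This gene was abundant in all 3 cell types and still lower in iMo (-2.02, SE 0.39, limma adjusted p = 0.0006) and in IM (-1.91, SE 0.39, limma adjusted p = 0.000522), with no overlap with AM. Cidec, which fuses droplets into larger ones in fat cells, was at 0.716 and 0.516 TPM in iMo, 7.55 and 3.08 TPM in IM, and 131, 231, 209 and 263 TPM in AM. Its log2 differences were -7.12 in iMo (SE 0.47, limma adjusted p = 9.97e-11) and -5.11 in IM (SE 0.47, limma adjusted p = 1.47e-08). Both iMo values lay under the pseudocount of 1 TPM, which bounds the iMo fold.

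For the lipases, Lipa was at 36.7 and 32.5 TPM in iMo, 26.0 and 48.7 TPM in IM, and 125, 146, 229.9 and 302 TPM in AM. Its iMo and IM libraries lay together, below AM by -2.56 (SE 0.41, limma adjusted p = 4.76e-05) and -2.38 (SE 0.41, limma adjusted p = 6.21e-05). Pnpla2 was at 17.1 and 29.9 TPM in iMo, 34.8 and 48.5 TPM in IM, and 37.1, 51.8, 49.0 and 58.6 TPM in AM. IM overlapped AM for this triglyceride lipase (-0.24, SE 0.31, limma adjusted p = 0.641), whereas iMo were lower (-1.21, SE 0.31, limma adjusted p = 0.00935). The iMo call was lost without iMo library A (limma adjusted p = 0.255). Within the third code alone, with 3 AM libraries, the differences kept their direction for all 10 genes, from -7.18 (Cidec) to -1.19 (Pnpla2) in iMo, Fabp1 aside, and from -5.17 (Cidec) to 0.30 (Cd36) in IM.

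The ip groups share no library with 0h. Averaged over 2h, 6h and 20h, 9 of 10 genes were called lower and Dgat2 was called higher in iMo against AM, where 46.0% of all tested genes were called (1638 higher and 2471 lower; median of all genes -0.10). The same split, 9 lower and Dgat2 higher, was found in IM against AM, where 54.1% were called (1567 higher and 3272 lower; median of all genes -0.30). Fabp1 stayed between 0 and 4.24 TPM (median 0.899) in 6 iMo libraries and between 0.663 and 9.24 TPM (median 2.60) in 6 IM libraries, against 64.9 to 440.2 TPM (median 177) in 7 AM libraries. Cidec was at 0.283 to 3.34 TPM (median 2.62) in iMo and 0.257 to 5.64 TPM (median 1.54) in IM, against 74.5 to 248 TPM (median 134) in AM. The iMo ranges lay apart from AM for 8 of the 10 genes, where 18.7% of all tested genes had ranges apart, and the IM ranges for 6 of 10, where 20.5% had. Overlap with AM was seen in both cell types for Plin2 and Dgat2, and in IM for Fabp5 and Cd36.

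Cidec after ip LPS was lower than in AM by -5.33 in iMo (SE 0.30, limma adjusted p = 1.06e-12) and by -5.39 in IM (SE 0.30, limma adjusted p = 2.51e-13). These folds set AM against values near the pseudocount of 1 TPM, and no iMo library reached the filter of 5 TPM. The smallest of the lower calls was Plin2, at -0.93 in iMo (SE 0.25, limma adjusted p = 0.00172) and -0.72 in IM (SE 0.25, limma adjusted p = 0.00157). Its levels were 171 to 339 TPM (median 213) in iMo and 96.2 to 320 TPM (median 262) in IM, against 314 to 596 TPM (median 513) in AM. Dgat2 ran the other way, at 17.9 to 84.3 TPM (median 46.2) in iMo and 31.9 to 234 TPM (median 68.0) in IM, against 8.76 to 44.4 TPM (median 23.3) in AM. Its difference was 0.97 in iMo (SE 0.31, limma adjusted p = 0.0241) and 1.98 in IM (SE 0.31, limma adjusted p = 7.4e-05). By time, Dgat2 of iMo and IM lay above AM at 2h and 20h. At 6h it overlapped AM, with 40.4 to 52.0 TPM in iMo, 31.9 to 91.9 TPM in IM and 23.3 to 44.4 TPM in AM. The iMo call for Dgat2 was lost without the AM 2h library of the first code, iMo 2h library B, iMo 6h library A or iMo 20h library A (limma adjusted p 0.0558 to 0.0758).

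Within the second code alone these differences stood at -5.34 (Cidec) to 0.86 (Dgat2) in iMo against AM, Fabp1 aside. In IM against AM, Dgat2 was 2.12 within the second code and 1.99 within the first. The IM differences of Cd36 were -2.86 within the second code and -1.06 within the first, and those of Fabp5 were -1.63 and -0.22. Both were smaller in the code that holds 2 of the 3 times, and the pooled values were -2.33 for Cd36 and -1.34 for Fabp5.

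**Figure D2:**
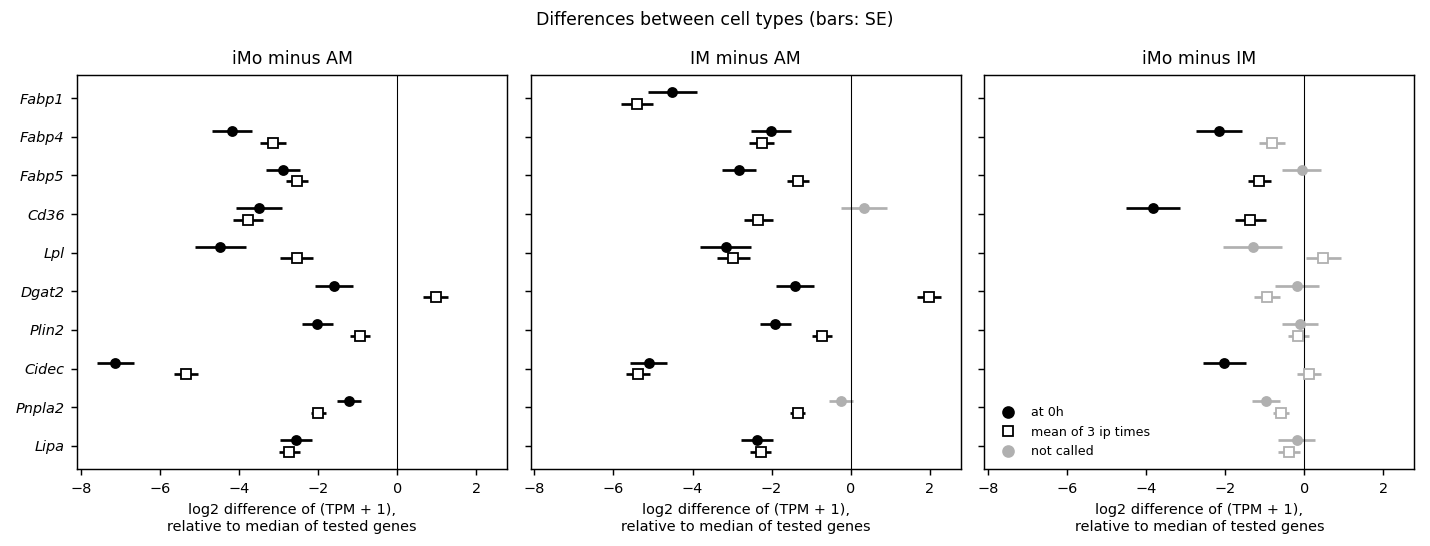
Log2 difference of (TPM + 1) between cell types for each gene, relative to the median of tested genes, at 0h (circles) and over the 3 ip times (squares), with bars for the SE and grey for differences that were not called. Fabp1 is not drawn for iMo, where it was listed at 0 at 0h and at 2h. Dgat2 lies to the left of 0 at 0h and to the right of 0 after ip LPS in the first 2 panels, at 0.97 (iMo) and 1.98 (IM).

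Monocytes and IM differed from each other in fewer genes. At 0h, 4 of 10 genes were called lower in iMo than in IM, where 7.06% of all tested genes were called (565 lower; median of all genes 0.15): Cd36 (-3.83, SE 0.67, limma adjusted p = 0.000447), Fabp1 (limma adjusted p = 0.000862), Fabp4 (-2.15, SE 0.58, limma adjusted p = 0.0319) and Cidec (-2.02, SE 0.54, limma adjusted p = 0.0332). Cd36 and Fabp1 held without each library in turn. No iMo library reached the filter of 5 TPM for Fabp1 or Cidec. Their calls here set IM against iMo values near or under the pseudocount of 1 TPM. The Fabp4 call was lost without IM library A, IM library B or iMo library A (limma adjusted p up to 0.492), and the Cidec call without IM library A or either iMo library (limma adjusted p up to 0.533). The endothelial and epithelial markers were high in the same IM libraries, and their part in these 4 differences was not tested.

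After ip LPS, 2 of 10 genes were called lower in iMo than in IM, where 9.13% were called (439 lower; median of all genes 0.14). Cd36 was at 1.198 to 6.58 TPM (median 3.73) in iMo and 2.85 to 28.3 TPM (median 8.58) in IM (-1.37, SE 0.39, limma adjusted p = 0.0478). Fabp5 was at 7.0 to 18.9 TPM (median 10.1) in iMo and 10.9 to 89.1 TPM (median 18.8) in IM (-1.14, SE 0.29, limma adjusted p = 0.031). The ranges of all 10 genes overlapped between these cell types, where 1.44% of all tested genes had ranges apart. The Cd36 call was lost in 9 of 12 fits that left out a library (limma adjusted p up to 0.197) and the Fabp5 call in 6 of 12 (limma adjusted p up to 0.129), in both cases with the highest p without the IM 6h library of the first code. Without that library Dgat2 was called lower in iMo (limma adjusted p = 0.0486), and without iMo 2h library B Fabp4 was (limma adjusted p = 0.0439). Within the second code the differences were -1.17 for Cd36 and -0.61 for Fabp5.

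Over time, Dgat2 gave the highest rise of the set. In IM, 5 of 10 genes were called at 2h, Dgat2 higher and Cd36, Lpl, Pnpla2 and Lipa lower. That share was near the 48.7% of all tested genes that were called (714 higher and 3642 lower), and the median of all was -0.79. Of the 27 libraries, the IM 2h library of the first code had the fewest genes at 5 TPM or more, at 4068. IM 2h library A had 5374, and the IM libraries of 0h had 6895 and 6905. Dgat2 reached 123 and 234 TPM in IM at 2h, against 20.7 and 5.75 TPM at 0h. The groups lay far apart, with a log2 difference of 4.61 (SE 0.55, limma adjusted p = 1.16e-05) that ran from 3.73 to 5.45 when libraries were left out in turn. The 2h level of IM was the highest of the 12 groups and did not overlap the next, iMo at 2h.

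Cd36 was at 2.85 and 15.2 TPM in IM at 2h, against 72.1 and 97.5 TPM at 0h, a difference of -2.63 (SE 0.67, limma adjusted p = 0.000284) with no overlap. The summed endothelial markers were at 10.1 and 19.6 TPM in IM at 2h, against 701 and 953 TPM at 0h. In the same libraries IM markers summed to 485 and 1314 TPM, against 6261 and 7753 TPM. Epithelial markers summed to 18.3 and 51.5 TPM, against 301 and 658 TPM. Fibroblast, lymphocyte and adipocyte sums were also lower at 2h, while those of AM, monocyte and neutrophil markers overlapped 0h. The part of each in the Cd36 difference was not tested. Pnpla2 was at 11.2 and 14.3 TPM at 2h, against 34.8 and 48.5 TPM at 0h (-0.83, SE 0.35, limma adjusted p = 0.000702). Lpl was at 3.41 and 20.1 TPM at 2h, against 36.0 and 62.6 TPM at 0h (-1.54, SE 0.75, limma adjusted p = 0.0135), and Lipa at 6.94 and 17.5 TPM, against 26.0 and 48.7 TPM (-0.80, SE 0.47, limma adjusted p = 0.00757). None of these 3 groups overlapped. The 3 calls refer to values before the median of -0.79 was subtracted. The Lpl and Lipa calls were lost without IM 0h library B (limma adjusted p = 0.107 and 0.117) or without the IM 2h library of the first code (limma adjusted p = 0.282 and 0.163), and Lipa also under quantile normalization (limma adjusted p = 0.0507). Plin2 was called higher without the IM 2h library of the first code (limma adjusted p = 0.029).

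At 6h in IM, 4 genes were called higher (Fabp5, Dgat2, Fabp4 and Plin2) and 2 lower (Cd36 and Fabp1), where 25.5% of all tested genes were called (414 higher and 1861 lower) with a median of -0.53. Fabp5 was at 89.1 and 29.4 TPM at 6h, against 11.2 and 5.57 TPM at 0h (3.08, SE 0.50, limma adjusted p = 0.000657), and it kept its call without each library in turn. Fabp4 was at 59.2 and 53.6 TPM at 6h, against 20.3 and 9.55 TPM at 0h (2.47, SE 0.58, limma adjusted p = 0.0172). Plin2 was at 281 and 320 TPM, against 119 and 115 TPM (1.89, SE 0.45, limma adjusted p = 0.0312). Each of these droplet and carrier genes lay above its 0h range. Dgat2 was at 31.9 and 91.9 TPM at 6h, against 20.7 and 5.75 TPM at 0h (2.73, SE 0.55, limma adjusted p = 0.00579). Cd36 was at 28.3 and 4.57 TPM, against 72.1 and 97.5 TPM (-2.20, SE 0.67, limma adjusted p = 0.00474), and Fabp1 at 1.31 and 0.663 TPM, against 10.5 and 12.7 TPM (-2.15, SE 0.71, limma adjusted p = 0.00799).

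With the title code as a covariate, limma called Dgat2 and Cd36 in IM at 2h, Dgat2 at 6h and 0 of 10 genes at 20h, and the Fabp5 call at 6h was lost (limma adjusted p = 0.09). AM at 0h was the only group with the third code beside another, so this fit takes the effect of the third code from AM. It assumes the same effect in IM, where code and LPS cannot be told apart. Apart from Fabp5, the 6h calls in IM rested on few libraries. Without IM 0h library B, the calls of Dgat2, Fabp4, Fabp1, Cd36 and Plin2 were lost (limma adjusted p = 0.159, 0.183, 0.0647, 0.0539 and 0.131). Without IM 6h library A they were lost too (limma adjusted p = 0.111, 0.0568, 0.0573, 0.131 and 0.114), with Cd36 at -0.81. Fabp4 and Plin2 were further lost without the IM 6h library of the first code (limma adjusted p = 0.0898 and 0.0934), and Plin2 without IM 0h library A (limma adjusted p = 0.121).

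At 20h in IM, Dgat2 was called higher and Cd36 lower, where 12.4% of all tested genes were called (362 higher and 750 lower). Dgat2 was at 33.5 and 44.1 TPM at 20h, against 20.7 and 5.75 TPM at 0h (1.80, SE 0.55, limma adjusted p = 0.0438), and Cd36 at 7.36 and 9.80 TPM, against 72.1 and 97.5 TPM (-3.07, SE 0.67, limma adjusted p = 0.00194). Neither pair of groups overlapped. At 20h the endothelial sum was at 24.3 and 46.9 TPM and the IM marker sum at 2067 and 2254 TPM. The part of either in the Cd36 difference was not tested. The Dgat2 call was lost without IM 0h library B (0.91, limma adjusted p = 0.509) and without either 20h library (limma adjusted p = 0.109 and 0.255), while Cd36 held. Without IM 20h library B, Fabp1 and Cidec were called lower (limma adjusted p = 0.0414 and 0.0316).

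**Figure D3:**
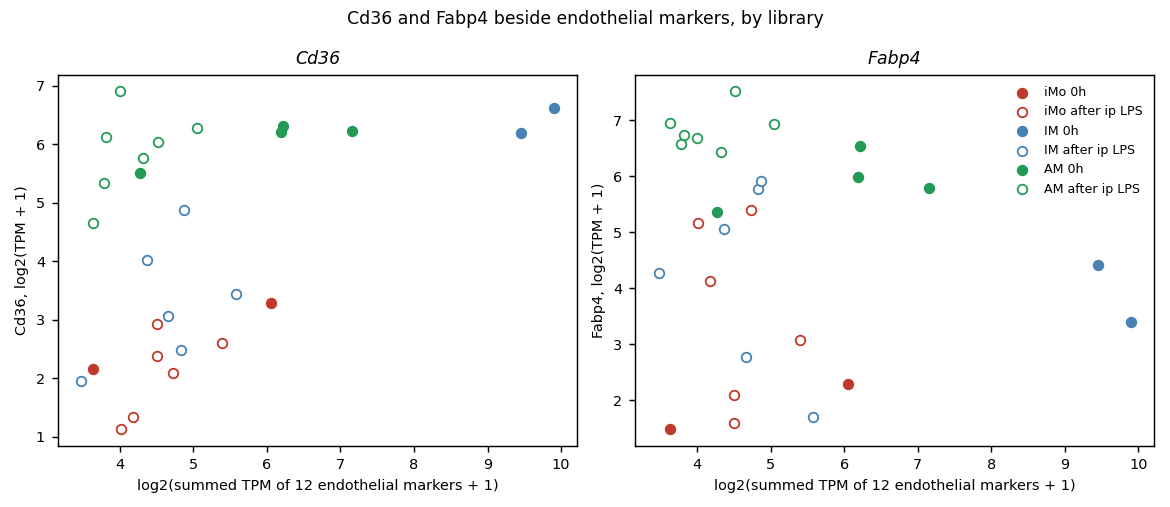
Cd36 (left) and Fabp4 (right) on a log2(TPM + 1) axis against the summed TPM of 12 endothelial markers on a log2 axis, 1 point per library, filled at 0h and open after ip LPS. The IM libraries of 0h (blue, filled) stand alone at 701 and 953 TPM of endothelial markers with 72.1 and 97.5 TPM of Cd36. AM reach similar Cd36 at 11.4 to 142 TPM of endothelial markers. The part of endothelial RNA in Cd36 was not tested.

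The comparison of 20h with 2h uses ip libraries only. In IM, 39.0% of all tested genes were called (2846 higher and 641 lower), with a median of 0.65, and 5 of 10 genes were called: Lpl, Lipa and Pnpla2 higher, Fabp4 and Dgat2 lower. Lpl was at 64.2 and 75.0 TPM at 20h, against 3.41 and 20.1 TPM at 2h (2.22, SE 0.75, limma adjusted p = 0.00484). Fabp4 was at 5.86 and 2.27 TPM at 20h, against 18.4 and 32.3 TPM at 2h (-3.07, SE 0.58, limma adjusted p = 0.00247), and Dgat2 at 33.5 and 44.1 TPM, against 123 and 234 TPM (-2.76, SE 0.55, limma adjusted p = 0.00488). The groups lay apart for all 3 genes. Lipa (0.89, SE 0.47, limma adjusted p = 0.0125) and Pnpla2 (0.59, SE 0.35, limma adjusted p = 0.0083) also lay above their 2h ranges at 20h. Their calls refer to values before the median of 0.65 was subtracted.

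Within the second code these differences were 1.36 for Lpl, 0.55 for Lipa, 0.70 for Pnpla2, -3.19 for Fabp4 and -2.95 for Dgat2. They leave out the IM 2h library of the first code, the one with the fewest genes at 5 TPM or more. The calls of Lpl, Lipa and Pnpla2 were lost without the IM 2h library of the first code (limma adjusted p = 0.139, 0.221 and 0.0731), and Cidec was then called lower (limma adjusted p = 0.0453). Lipa, Pnpla2 and Fabp4 were lost without IM 20h library B (limma adjusted p = 0.115, 0.068 and 0.0628), and Lipa and Pnpla2 also under quantile normalization (limma adjusted p = 0.0516 and 0.0814). Dgat2 was lost without IM 2h library A (limma adjusted p = 0.0512), when Plin2 was called higher (0.31, limma adjusted p = 0.0422).

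In iMo, 2 of 10 genes were called at 2h, where 32.4% of all tested genes were called (752 higher and 2145 lower) with a median of -0.42. Dgat2 was at 62.2 and 84.3 TPM at 2h, against 10.9 and 10.6 TPM at 0h, a difference of 3.06 (SE 0.55, limma adjusted p = 0.00092) that kept its call without each library in turn. Lipa was at 12.95 and 9.33 TPM at 2h, against 36.7 and 32.5 TPM at 0h (-1.14, SE 0.47, limma adjusted p = 0.0131). Both genes had ranges apart from 0h, as in IM. The Lipa call was lost with the title code as a covariate (limma adjusted p = 0.395), and without either 0h library or without iMo 2h library B (limma adjusted p = 0.077, 0.0526 and 0.123). Fabp4 and Plin2 were called higher without iMo 2h library A (limma adjusted p = 0.0102 and 0.0423), and Pnpla2 was called lower without that library or iMo 0h library A (limma adjusted p = 0.0468 and 0.0325).

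At 6h in iMo, Dgat2 and Fabp4 were called higher, where 29.1% of all tested genes were called (532 higher) with a median of -0.48. Fabp4 was at 35.0 and 41.4 TPM at 6h, against 1.82 and 3.92 TPM at 0h (3.87, SE 0.58, limma adjusted p = 0.000169), and it held without each library in turn. Its 20h values, 2.02 and 7.41 TPM, overlapped 0h again. Dgat2 was at 52.0 and 40.4 TPM at 6h, against 10.9 and 10.6 TPM at 0h (2.47, SE 0.55, limma adjusted p = 0.0095), and its call was lost without iMo 0h library B (limma adjusted p = 0.0571) or iMo 6h library A (limma adjusted p = 0.0623). Plin2 was at 273 and 238 TPM, against 128 and 110.3 TPM, above its 0h range, but was not called (1.57, SE 0.45, limma adjusted p = 0.0724); under quantile normalization it was (limma adjusted p = 1.87e-05).

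At 20h in iMo, Lpl alone was called, where 22.2% of all tested genes were called (660 higher) with a median of -0.31. It was at 108 and 88.0 TPM at 20h, against 11.2 and 37.4 TPM at 0h (2.50, SE 0.75, limma adjusted p = 0.0395), with no overlap. The call was lost without iMo 0h library A (1.67, limma adjusted p = 0.34) and without either 20h library (limma adjusted p = 0.158 and 0.13). It was also lost with the title code as a covariate (limma adjusted p = 0.212), without a filter (limma adjusted p = 0.0881) and with a pseudocount of 0.1 TPM (limma adjusted p = 0.0522). For 20h against 2h, within the second code and among ip libraries alone, 3 of 10 genes were called, where 25.0% of all tested genes were called (1310 higher and 920 lower) with a median of 0.14. Lpl at 20h stood above its 2h values of 31.9 and 6.72 TPM (2.49, SE 0.75, limma adjusted p = 0.0123). Dgat2 was at 21.1 and 17.9 TPM at 20h, against 62.2 and 84.3 TPM at 2h (-1.98, SE 0.55, limma adjusted p = 0.0167). Fabp1 was at 1.80 and 4.24 TPM at 20h and listed at 0 in both 2h libraries (limma adjusted p = 0.0479). No iMo library reached the filter of 5 TPM for Fabp1, which was tested because of its levels in AM and IM, so nothing is read from this call.

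Each of these 3 calls depended on single libraries. Fabp1 was lost without any of the 4 libraries (limma adjusted p = 0.0728 to 0.285). Dgat2 was lost without iMo 2h library B or either 20h library (limma adjusted p = 0.149, 0.0643 and 0.0986). Lpl was lost without the same 3 libraries (limma adjusted p = 0.279, 0.0832 and 0.0503), with a difference of 1.58 without iMo 2h library B. Fabp4 was called lower without iMo 2h library A (limma adjusted p = 0.0397).

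In AM, 0 of 10 genes were called by limma in any comparison of times. At an unadjusted p under 0.05 the counts were 1 at 2h (3.17% of all tested genes), 4 at 6h (9.75%), 2 at 20h (9.01%) and 1 for 20h against 2h (3.68%). The share of all tested genes called at an adjusted p under 0.05 was 0.134% at 2h, 1.30% at 6h (median of all genes -0.16), 0.112% at 20h (median -0.31) and 0.0224% for 20h against 2h (median -0.28). Pnpla2 came nearest: it was at 80.8, 106 and 99.8 TPM at 6h, against 37.1, 51.8, 49.0 and 58.6 TPM at 0h. All 3 libraries of 6h lay above all 4 of 0h, with a log2 difference of 1.11 (SE 0.27, limma adjusted p = 0.0909), and it was called under quantile normalization (1.26, limma adjusted p = 0.00192). Within the first code, with 1 library a side, Pnpla2 differed by 1.01.

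Fabp4 in AM was at 122, 85.2 and 182 TPM at 6h, against 39.9, 54.5, 62.7 and 92.2 TPM at 0h (1.20, SE 0.44, limma adjusted p = 0.402), and the ranges overlapped. Dgat2 in AM was at 10.1 and 8.76 TPM at 20h, against 15.1, 39.2, 32.5 and 47.7 TPM at 0h (-1.31, SE 0.48, limma adjusted p = 0.301). At 20h Dgat2 was below every AM library of 0h, and this group mean was the lowest of the 12, with 1 IM library of 0h lower still. Fabp1 in AM at 20h was at 440.2 TPM in the library of the first code and 64.9 TPM in library A, the one with 3898 TPM of IM markers, whose part in this value was not tested.

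**Figure D4:**
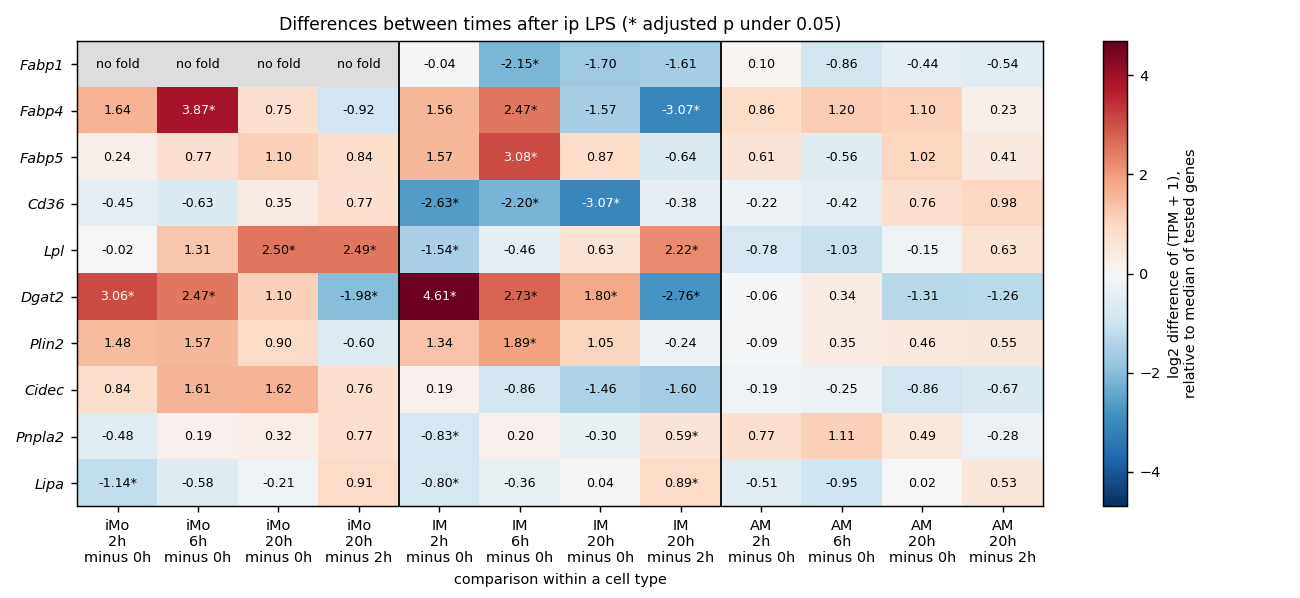
Log2 difference of (TPM + 1) for each gene (rows) between times after ip LPS (columns, by cell type), relative to the median of tested genes, with red for higher and blue for lower at the first-named time and a star for adjusted p under 0.05. No AM column holds a star, the Dgat2 row is red in the first columns of iMo (3.06) and IM (4.61), and Fabp1 in iMo is given without a fold because it was listed at 0 at 0h and at 2h.

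Whether the ip response itself differed between cell types was tested with limma's moderated F test over the 3 times. Between IM and AM, 5 of 10 genes were called, where 26.5% of all tested genes were: Fabp5 (adjusted p = 0.00187), Dgat2 (adjusted p = 0.00206), Pnpla2 (adjusted p = 0.00456), Cd36 (adjusted p = 0.0139) and Fabp4 (adjusted p = 0.0168). Cd36 was lost without IM 0h library B (adjusted p = 0.0713) and Fabp4 without IM 20h library B (adjusted p = 0.115). Between iMo and AM, 3 of 10 were called, where 17.3% were: Dgat2 (adjusted p = 0.0299), Pnpla2 (adjusted p = 0.0303) and Fabp4 (adjusted p = 0.0453). Leaving out libraries in turn lost these calls in 7, 7 and 12 of 19 fits by the same limma test. Between iMo and IM, Fabp1 alone was called (limma adjusted p = 0.0393), where 3.75% were, and the call was lost in 11 of 16 fits. Among the genes not called, Cidec was called in 3 such fits between iMo and AM and in 3 between iMo and IM, Fabp1 in 2 between iMo and AM, and Fabp5 in 1 between iMo and IM. Since Fabp1 was listed at 0 in iMo at 0h and 2h, its response there is bounded by the pseudocount of 1 TPM, and no iMo library reached the filter of 5 TPM, so nothing is read from this call either.

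The wider pathway was read through 62 other genes in 6 lists, of which 52 passed the filter. The lists, too, were chosen with earlier results of these data known. Before LPS, 4 of 52 were called higher and 22 lower in iMo against AM (50% called, against 29.6% of all tested genes), with a median log2 difference of -0.98, and 5 were called higher and 22 lower in IM against AM (51.9%, against 26.0%), with a median of -0.81. Among transcriptional regulators, 6 of 11 were lower in each: Pparg, the receptor named above, by -4.29 in iMo (limma adjusted p = 5.63e-08) and -2.55 in IM (limma adjusted p = 6.31e-05), and Bhlhe41, a repressor that acts in AM, by -4.06 and -2.76. Among genes of lipid hydrolysis, Mgll, which cleaves monoglyceride, was lower by -5.45 and -2.98, and Lipe, the hormone-sensitive lipase, was higher by 2.02 and 2.68. Fatty acid oxidation had 3 of 12 genes lower in iMo, where 29.6% of all genes were called in either direction (1201 of 8937 lower). In IM, 7 of 12 were lower, where 26.0% of all genes were called in either direction (982 lower). Of triglyceride synthesis, Lpin1, a phosphatidate phosphatase, was lower by -4.26 and -3.02. After ip LPS the split was 5 higher and 32 lower in iMo (71.2%, against 46.0% of all genes), and 5 higher and 33 lower in IM (73.1%, against 54.1%).

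The pathway genes of iMo against IM gave 1 higher and 6 lower of 52 at 0h (13.5%, against 7.06% of all genes), and 2 higher and 6 lower after ip LPS (15.4%, against 9.13%). G0s2, an inhibitor of the Pnpla2 lipase, was lower in iMo by -4.19 at 0h and -4.43 after ip LPS (limma adjusted p = 4.12e-05 and 3.75e-09). In IM against AM, G0s2 was higher by 1.81 at 0h and 2.55 after ip LPS. G0s2 is abundant in neutrophils, whose summed markers were at 135 to 3059 TPM in iMo and 11176 to 56844 TPM in IM, and their part in the G0s2 level was not tested.

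In time, the share of pathway genes called lay near or below that of all tested genes. In IM, 2 of 52 were called higher and 24 lower at 2h (50%, against 48.7% of all genes), 3 higher and 9 lower at 6h (23.1%, against 25.5%), and 2 higher and 6 lower at 20h (15.4%, against 12.4%). For 20h against 2h in IM, 14 were higher and 1 lower (28.8%, against 39.0%). In iMo the counts were 1 higher and 11 lower at 2h (23.1%, against 32.4%), 2 higher and 9 lower at 6h (21.2%, against 29.1%), 4 higher and 6 lower at 20h (19.2%, against 22.2%), and 11 higher and 2 lower for 20h against 2h (25%, against 25.0%). In AM, 0 of 52 were called by limma in the 4 comparisons of times, and 0 at 2h, 3 at 6h, 3 at 20h and 0 for 20h against 2h had an unadjusted p under 0.05. Nr1h3, which encodes the oxysterol receptor LXRα, was higher at each time: by 3.06, 4.68 and 5.77 in iMo and by 2.06, 3.90 and 4.71 in IM at 2h, 6h and 20h. Acsl5, which activates fatty acids, was higher in IM by 2.07, 1.76 and 1.38. Acadm, a dehydrogenase of fatty acid oxidation, was lower at 2h by -2.63 in iMo and -1.70 in IM, and Hsd17b11, a droplet enzyme, by -2.44 and -1.93. The median of the 52 genes at 2h was 0.03 in iMo and -0.08 in IM, relative to all genes.

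Over the 12 group means, the genes with the most similar patterns were found by Pearson r of log2(TPM + 1), a description in which all values share libraries and cell type differences. Fabp1 was nearest to Mgll (0.991), Plet1 (0.990) and Plet1os (0.984), and Cidec was near to Perp (0.996) and Ear1 (0.994). Lipa was nearest to Acox3 (0.983), Dpp7 (0.982) and Pnpla8 (0.980), and Plin2 was near to Csf2rb2 (0.982) and Tbc1d20 (0.933). Lpl was nearest to Igsf8 (0.977), Slc12a7 (0.972) and Prrc2b (0.971), and Cd36 to Serpinb6a (0.971), Hist1h2bc (0.970) and Ifi27 (0.962). Pnpla2 was nearest to Tmem86a (0.966), Pdk1 (0.960) and Nudt18 (0.948), Fabp5 to Tnfrsf26 (0.932), Bhlhe40 (0.930) and Gpnmb (0.916), and Fabp4 to Ch25h (0.917), Phlda1 (0.912) and Vdr (0.908). Dgat2 stood apart from the set, with r of -0.54 to 0.09 to the other 9 genes. Its nearest genes were Rffl (0.936), Batf (0.932) and Tnfaip3 (0.923), the last an LPS-induced feedback gene of NF-kB signalling. Among the other 9 genes r ran from 0.444 (Plin2 with Cd36) to 0.976 (Fabp1 with Cidec).

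On GRCm38, from the GENCODE annotation, Fabp4 (chr3:10204088-10208576, minus strand) and Fabp5 (chr3:10012548-10016607, plus strand) share a chromosome region. Fabp1 lies at chr6:71199827-71205023 and Cidec at chr6:113424634-113435760, Plin2 at chr4:86648386-86670060, Lpl at chr8:68880491-68907448 and Cd36 at chr5:17781690-17888801. Pnpla2 lies at chr7:141455198-141460743, Dgat2 at chr7:99153658-99182719 and Lipa at chr19:34492318-34527474.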

How the data were processed

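Messenger RNA of sorted lung cells was made into low-input libraries following Smart-seq2 with changes, per the labels' protocols. The authors deposited 1 table of TPM, with 1 column a library; STAR, HOMER and mm10 are named in the submitters' processing notes; versions and annotation were not given in the sources used here. TPM keeps no read depth, so precision was judged from replicates, whose log2 values correlated at a Pearson r of 0.936 to 0.981 within groups.

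limma 3.58.1 (R 4.3.3) fitted log2(TPM + 1) with 12 group coefficients. A gene was tested if 2 or more libraries reached 5 TPM, which left 8937 genes. Moderated t tests (18 comparisons) and F tests (3 comparisons) used empirical Bayes moderation with a mean-variance trend and Benjamini-Hochberg adjustment within each comparison. Comparisons with 0h share the 0h libraries. The genes and lists were chosen with earlier results of these data known. By rule, all 10 genes were named, 1 to 4 called genes with the largest change served as list examples, and for each gene the 3 with the highest r over group means were named. Some genes that these rules pick are not reported here. Alternatives were a pseudocount of 0.1 TPM, no filter, quantile normalization, TPM rescaled without Rn45s and Lars2, the title code as a covariate, a replicate block, and leaving out each library.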

Additional observations from a re-analysis of the deposited data

Results flagged for a closer look

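Cd36 at 0h in AM had 1 library, that of the first title code, below the other 3 (44.5 TPM against 73.1 to 78.5 TPM); the gap was 0.842 of the group's range. Chance flags about 1 in 20 groups, and 10 gene groups were examined.

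The response to ip LPS differed between IM and AM by limma's F test for Fabp5 (adjusted p = 0.00187), Dgat2 (adjusted p = 0.00206), Pnpla2 (adjusted p = 0.00456), Cd36 (adjusted p = 0.0139) and Fabp4 (adjusted p = 0.0168). It differed between iMo and AM for Dgat2 (adjusted p = 0.0299), Pnpla2 (adjusted p = 0.0303) and Fabp4 (adjusted p = 0.0453). Between iMo and IM, Fabp1 was called (limma adjusted p = 0.0393). Nothing is read from that Fabp1 call, since no iMo library reached the filter of 5 TPM.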

How the results depend on the processing

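Counts below are of the 10 genes called by limma. No difference changed direction among those called. Of 79 calls, 45 held without each library in turn and 34 were lost without at least 1. Without a filter, 1 gene was called in IM at 20h and 0 in iMo at 20h, in iMo against IM after ip LPS, and in the F tests of iMo against AM and against IM. With a pseudocount of 0.1 TPM, 1 was called in IM at 20h. Under quantile normalization 1 was called in AM at 6h, 3 in iMo at 20h, and 5 and 2 in the F tests of iMo against AM and against IM. Rescaled without Rn45s and Lars2, 1 was called in AM at 6h, 4, 4 and 5 in iMo at 2h, 6h and 20h, 5 in iMo for 20h against 2h, and 7 and 2 in those F tests. With the title code as a covariate, 2, 1 and 0 were called in IM and 1, 2 and 0 in iMo at 2h, 6h and 20h, 4 in iMo against IM after ip LPS, and 2 in the F test of iMo against IM. For IM and iMo against 0h, that fit takes the effect of the third code from AM. The cause of these shifts was not tested.

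With title suffixes as a replicate block, 1, 0 and 0 genes were called in IM, and 0, 0 and 0 in iMo, at 2h, 6h and 20h. All iMo calls against 0h were thus lost there, those of Dgat2 and Fabp4 included. The labels do not say what a suffix stands for. Deviations from group means correlated between same-suffix libraries with a median r of 0.0836 (-0.21 to 0.618), but among the libraries of the first code with a median of 0.362, over 0.1 in 13 of 15 pairs, and 10 of 25 libraries correlated best with their own suffix.

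With libraries left out in turn, counts ran from 1 to 3 in IM at 20h, 3 to 5 at 2h, 1 to 5 at 6h and 2 to 5 for 20h against 2h. In iMo they ran from 1 to 5 at 2h, 1 to 2 at 6h, 0 to 1 at 20h and 0 to 3 for 20h against 2h. Against IM, iMo gave 2 to 3 at 0h, 0 to 2 after ip LPS and 0 to 2 in the F test, and against AM 0 to 4 in the F test. With 2 libraries in most groups and no read depth, small differences could not be resolved.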
